A study of Mus musculus with 35 samples.

Results

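Acetate given to wild-type (WT) mice was compared with water in bulk RNA from the medial prefrontal cortex (mPFC), taken as punches. The comparison holds 11 of the 35 libraries of the series: 5 from WT mice on acetate (WT_acetate) and 6 from WT mice on water (WT_control), each taken by the genotype and treatment that its label gives. The other libraries come from WT mice on antibiotics alone or with acetate (WT_abx, WT_abx_and_acetate), and from mice deficient in Shank3 (KO) under the same 4 treatments. No agent or allele other than these is named in the labels; the sources used here do not give the dose, route and duration of the acetate or the age of the mice. The study's title asks whether acetate changes transcription in the cortex of Shank3-deficient mice, and the WT groups give the response of the same tissue with Shank3 present. Libraries carry the name of their group and a number, which is no more than a name.

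Acetate is a short-chain fatty acid that gut bacteria release when they ferment fibre. Cells attach it to coenzyme A with the enzymes Acss1 and Acss2, and the acetyl-CoA so made feeds the citric acid cycle, lipid synthesis and the acetylation of histones. The prefrontal cortex takes part in social behaviour, and its neurons switch on immediate early genes such as Fos, Egr1 and Arc within minutes of being active.

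The 5 WT_acetate libraries held 18.7 to 23.0 M (mega) reads over the 14870 genes of the deposited matrix, against 20.1 to 28.0 M in the 6 WT_control libraries. RNA integrity numbers were 8.9 to 9.2 in WT_acetate and 8.9 to 9.3 in WT_control. The labels give 4 males and 1 female in WT_acetate, and 3 males and 3 females in WT_control. All values below are the deposited log2 CPM, a level on a log2 scale relative to library size, and a log2 fold of 1 is a doubling. Slc17a7, the vesicular glutamate transporter of cortical excitatory neurons, stood at 10.56 to 11.05 log2 CPM in WT_acetate and at 10.60 to 10.91 in WT_control. Whether each library stands for 1 animal is not in the labels, and the p-values measure the spread between libraries, which may be technical.

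Genes that check the labels set 3 of the WT_acetate libraries apart. Shank3, the postsynaptic scaffold that KO mice lack, stood at 8.49, 7.80, 8.47, 8.47 and 8.08 log2 CPM in WT_acetate 1 to 5, against 8.63, 8.45, 8.24, 8.62, 8.85 and 8.63 in WT_control 1 to 6. The 16 KO libraries lay between 4.07 and 5.11. WT_acetate 2 and WT_acetate 5 were below every WT_control library. The mean difference of all 5 from the controls was -0.31, and -0.09 without these libraries; both are descriptions, since the libraries were singled out by their Shank3. Acr, the gene next to Shank3 on chromosome 15, read 0.30, 4.46, 0.50, 0.37 and 3.62 log2 CPM in WT_acetate, -0.46 to 0.58 in WT_control and 5.04 to 5.78 in KO. The libraries labelled WT_acetate 2 and WT_acetate 5 therefore held Acr levels between those of the other WT and the KO libraries, and the counts of genes and the gene lists below are given with and without them. The log2 folds of single genes named below kept their sign without them, except that of Acly.

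The Y-linked gene Ddx3y, an RNA helicase, read 5.76, -0.35, 5.59, -0.26 and 4.05 log2 CPM in WT_acetate 1 to 5. In WT_control it read 5.60 to 5.67 in the 3 libraries labelled male and -0.54 to 0.96 in the 3 labelled female. WT_acetate 2 and WT_acetate 4, labelled male, were at the level of the females, and WT_acetate 5, labelled female, lay in between. Uty, Kdm5d and Eif2s3y, the other Y-linked genes read, also put WT_acetate 2 and WT_acetate 4 at or below the range of the control females and WT_acetate 5 between the sexes. The test used the labelled sex throughout.

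**Figure D1:**
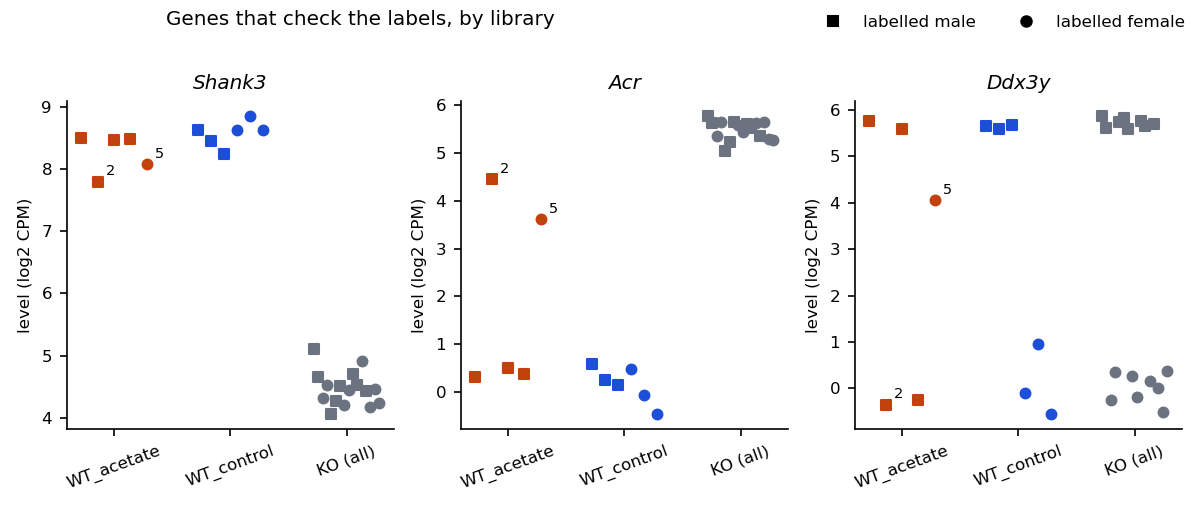
Level of Shank3, Acr and Ddx3y (log2 CPM) in each WT_acetate, WT_control and KO library; squares are labelled male, circles labelled female, and WT_acetate 2 and 5 are numbered. Both numbered libraries had less Shank3 than any WT_control library. Their Acr levels of 4.46 and 3.62 lay between the -0.46 to 0.58 of WT_control and the 5.04 to 5.78 of KO.

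Over all 14870 genes, differences of single genes were small. The median log2 fold was 0.0011 and the median absolute log2 fold 0.09. With the threshold on the adjusted p at 0.05, 1 gene was called (0.00672% of those tested), Exosc1. Another 1 gene was called without WT_acetate 2 and 5 (0.00672%), Klhl23. At an unadjusted limma p under 0.05 stood 1399 genes (9.41%), 679 higher (4.57%) and 720 lower (4.84%). Leaving those libraries out gave 1333 (8.96%), and 847 genes had such a p and the same direction in both fits, 60.5% of the first set and 63.5% of the second. Across the 14870 genes, the log2 folds of the fits with and without these libraries had a Pearson r of 0.89, and the fits share every other library.

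Exosc1 rose with acetate. It encodes a cap subunit of the RNA exosome, the complex that trims and degrades RNA from the 3′ end. Its level was 3.59, 3.42, 3.39, 3.65 and 3.63 log2 CPM in WT_acetate, from 220 to 277 reads, against 3.07, 3.16, 3.22, 3.12, 3.01 and 3.06 in WT_control, from 166 to 265 reads. The lowest acetate library was above the highest control library. The log2 fold was 0.41 ± 0.07 (SE), or 1.33-fold (limma, adjusted p = 0.0482), and without WT_acetate 2 and 5 it was 0.39 ± 0.08 (adjusted p = 0.172). The call lay close to the threshold: it was lost when WT_acetate 1, 4 or 5, or WT_control 2, 4, 5 or 6 was left out, and the adjusted p ran from 0.0204 to 0.418 over 21 alternatives while the log2 fold stayed between 0.33 and 0.45. The gene lies on the reverse strand of chromosome 19 at chr19:41922292-41933423 (GRCm38, GENCODE vM21), where no other annotated gene overlaps it.

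Klhl23 rose without WT_acetate 2 and 5. It belongs to the kelch-like family, many of whose members bring substrates to cullin 3 ubiquitin ligases. It read 6.25, 6.04, 6.15, 6.31 and 6.02 log2 CPM in WT_acetate, against 5.76, 5.82, 5.88, 5.92, 5.97 and 5.97 in WT_control, with no overlap between the groups. Without WT_acetate 2 and 5 its log2 fold was 0.36 ± 0.06 (SE, adjusted p = 0.0280), and with them it was 0.27 ± 0.06 (adjusted p = 0.0804). That call was lost when WT_acetate 1 or 4, or WT_control 1, 2, 3 or 4 was also left out. The gene lies on the forward strand at chr2:69821944-69836651, and no other annotated gene overlaps it.

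The remaining genes named here did not pass the threshold and are given as values, in each direction the 12 genes of smallest p, Exosc1 and Klhl23 included. Among the 12 higher genes the log2 fold was 0.23 to 0.53, with adjusted p-values of 0.0482 to 0.170. In 8 of them all WT_acetate libraries lay above all WT_control libraries; over all genes this held for 0.74%. Among the 12 lower genes the log2 fold was -0.71 to -0.25, with adjusted p-values of 0.0516 to 0.158, and in 10 of them the groups did not overlap, against 0.908% of all genes. Both counts follow from choosing the genes by their p. With WT_acetate 2 and 5 left out, the folds of the same genes were 0.26 to 0.61 and -0.65 to -0.26.

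Tipin, Mcm2 and Bmyc were among the higher 12. Tipin, which binds Timeless and protects stalled replication forks, read 3.12, 3.08, 3.10, 3.32 and 3.13 log2 CPM in WT_acetate, against 2.61, 2.43, 2.82, 2.92, 2.55 and 2.73 in WT_control. Its log2 fold was 0.48 ± 0.10 (SE, adjusted p = 0.130), and each acetate library was above each control. Mcm2, a subunit of the replicative helicase, read 2.70, 2.82, 2.80, 2.42 and 2.10 in WT_acetate, against 2.32, 1.93, 2.23, 2.08, 1.93 and 2.02 in WT_control, where WT_acetate 5 lay inside the control range. Bmyc, a rodent relative of Myc without its DNA-binding part, read 5.35, 5.24, 5.42, 5.59 and 5.56 log2 CPM in WT_acetate, against 5.18, 5.14, 5.26, 5.04, 5.10 and 5.03 in WT_control. Only WT_acetate 2 reached into the control range, and the log2 fold was 0.31 ± 0.06 (adjusted p = 0.0804).

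Nr2f1, a nuclear receptor that patterns cortical areas, read 6.71, 6.61, 6.49, 6.49 and 6.55 log2 CPM in WT_acetate, against 6.27, 6.29, 6.17, 6.24, 6.20 and 6.10 in WT_control. The groups did not overlap, with a log2 fold of 0.39 ± 0.09 (SE, adjusted p = 0.160). Cln6, an endoplasmic reticulum membrane protein that is mutated in a neuronal ceroid lipofuscinosis, had the greatest log2 fold of the 12, 0.53 ± 0.13 (adjusted p = 0.160), and WT_acetate 2 overlapped the controls. Nosip, a ubiquitin ligase that binds nitric oxide synthase, had a log2 fold of 0.23, Snn (stannin, a small membrane protein) 0.24, Tbcc, a tubulin folding cofactor, 0.29, and the zinc finger genes Zfp316 and Zfp362 0.34 and 0.30. Bmyc, Nr2f1, Cln6, Nosip and Snn overlap a gene on the opposite strand, and the sources used here do not say whether counting used strand, so reads of both partners could be joined.

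Hectd2, Dnajc1 and Derl2 had the smallest p-values of the lower 12. Hectd2, a HECT-type ubiquitin ligase, read 4.18, 4.27, 4.46, 4.23 and 4.42 log2 CPM in WT_acetate, against 4.54, 4.90, 4.55, 5.09, 5.12 and 5.05 in WT_control. The 5 acetate libraries were below all 6 controls, with a log2 fold of -0.51 ± 0.09 (SE, adjusted p = 0.0516). Dnajc1, a co-chaperone of the endoplasmic reticulum membrane, read 4.44, 4.50, 4.49, 4.66 and 4.62 in WT_acetate, against 4.86, 5.10, 4.80, 5.12, 5.11 and 5.19 in WT_control. Derl2, a channel component of endoplasmic-reticulum-associated degradation, read 4.35, 4.44, 4.47, 4.45 and 4.55 in WT_acetate, against 4.74, 4.73, 4.77, 4.75, 4.77 and 4.74 in WT_control. The Derl2 controls had an SD of 0.015 (n = 6) around their mean of 4.75, and its log2 fold was -0.28 ± 0.06 (adjusted p = 0.0804). Hectd2 and Derl2 also overlap a gene on the opposite strand. Dnajc1, and Kmt2a given below, overlap genes on both strands, and Tipin, given above, overlaps a gene on its own strand.

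Ago3, Kmt2a and Tet3 were also among the lower 12. Ago3, an Argonaute protein that holds small RNAs, read 5.03, 5.46, 5.39, 5.44 and 5.43 log2 CPM in WT_acetate, against 5.64, 6.20, 5.92, 5.97, 5.99 and 5.86 in WT_control (log2 fold -0.57 ± 0.12 SE, adjusted p = 0.0804). Kmt2a, a histone H3 lysine methyltransferase, read 7.30, 7.28, 7.31, 7.51 and 7.59 in WT_acetate, against 7.81, 7.87, 7.67, 7.94, 7.82 and 7.79 in WT_control. Tet3, which oxidises methylcytosine, read 5.96, 6.04, 5.80, 6.20 and 6.18 in WT_acetate, against 6.48, 6.23, 6.30, 6.94, 6.88 and 6.77 in WT_control. None of these 3 genes overlapped between the groups, and their log2 folds were -0.57, -0.41 and -0.51. Tet3 was higher in the female controls, WT_control 4 to 6, than in the male ones. Rnf20, the ligase that adds ubiquitin to histone H2B, had a log2 fold of -0.25, Fubp1, a binding protein of single-stranded DNA and RNA, -0.30, and Phf21b, a PHD finger protein, -0.71. Phf21b read 4.19 to 4.44 in the control males and 4.86 to 4.91 in the control females, and Hectd2 was split likewise. Between libraries labelled male, the differences of Phf21b and Hectd2 were -0.49 and -0.38 log2 CPM.

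Igsf9b, an adhesion molecule of inhibitory synapses, read 5.16, 5.19, 5.27, 5.25 and 5.08 log2 CPM in WT_acetate, against 5.59, 6.07, 5.85, 6.16, 5.92 and 5.90 in WT_control. Its log2 fold was -0.71 ± 0.16 (SE, adjusted p = 0.158), and the gap between the groups was wider than the spread within WT_acetate. Mdn1, the giant ATPase of large ribosomal subunit assembly, had a log2 fold of -0.42, and Furin, a protease that activates proproteins, -0.32.

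**Figure D2:**
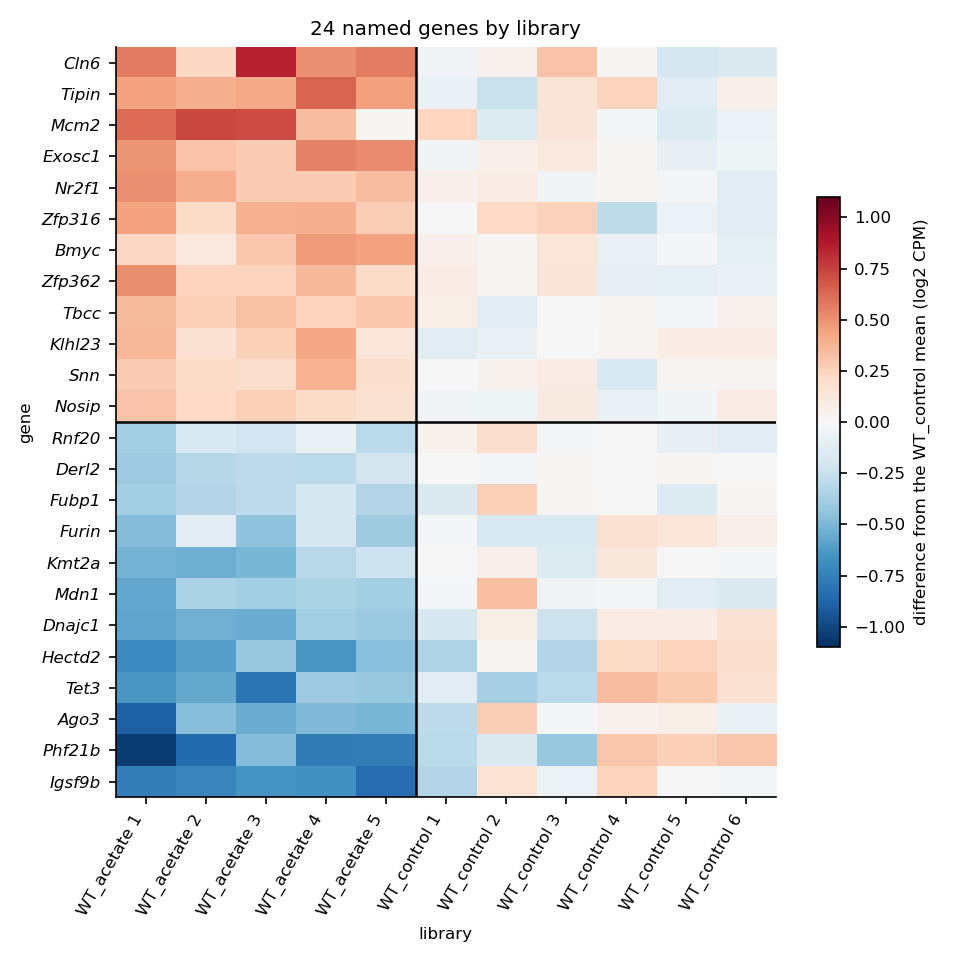
Level of the 24 named genes in each WT_acetate and WT_control library, as the difference from the WT_control mean of that gene (log2 CPM, red above and blue below). The 12 genes above the line had log2 folds of 0.23 to 0.53 and the 12 below it -0.71 to -0.25; they were chosen by p, so the contrast itself is no test.

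Without WT_acetate 2 and 5, the 6 genes of smallest p in each direction included 6 of those above. Added to them were Tmtc1, a mannosyltransferase, Faf1, a partner of the ATPase Vcp, and Zc3h6, a zinc finger gene, with log2 folds of 0.40, 0.35 and 0.64 (adjusted p = 0.172 for each; Tmtc1 had 0.21 with all libraries), and 3 lower genes. Tnfrsf25, the death receptor DR3, read 0.30, 1.39 and 1.81 log2 CPM in WT_acetate 1, 3 and 4, and 1.78 and 2.47 in WT_acetate 2 and 5, against 2.73, 3.44, 2.69, 2.98, 2.68 and 2.73 in WT_control. WT_acetate 1, with 22 reads, was the lowest, and the log2 fold was -1.69 ± 0.36 (SE) without WT_acetate 2 and 5 and -1.28 ± 0.32 with them. Serinc2 had a log2 fold of -1.35 and Zfp369 one of -0.60 without these libraries, against -0.99 and -0.44 with them.

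Transcript length moved with the acetate difference. The genes were ranked by their longest annotated transcript and divided into 5 bins of equal size, bin 1 the shortest (14427 of the symbols, 97.0%, matched the annotation). Bin 1 had a median log2 fold of 0.048 and bin 5 one of -0.040. At an unadjusted p under 0.05, 240 genes of bin 1 were higher and 89 lower, while in bin 5 there were 50 higher and 227 lower. The 12 higher named genes had a median longest transcript of 2554 nucleotides, against 6129 for the 12 lower ones. By library, the median deviation of bin 5 minus that of bin 1 ran from -0.11 to 0.02 log2 CPM in WT_acetate and from -0.04 to 0.12 in WT_control, so the groups overlapped. The part of transcript length in the values of the named genes was not tested.

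**Figure D3:**
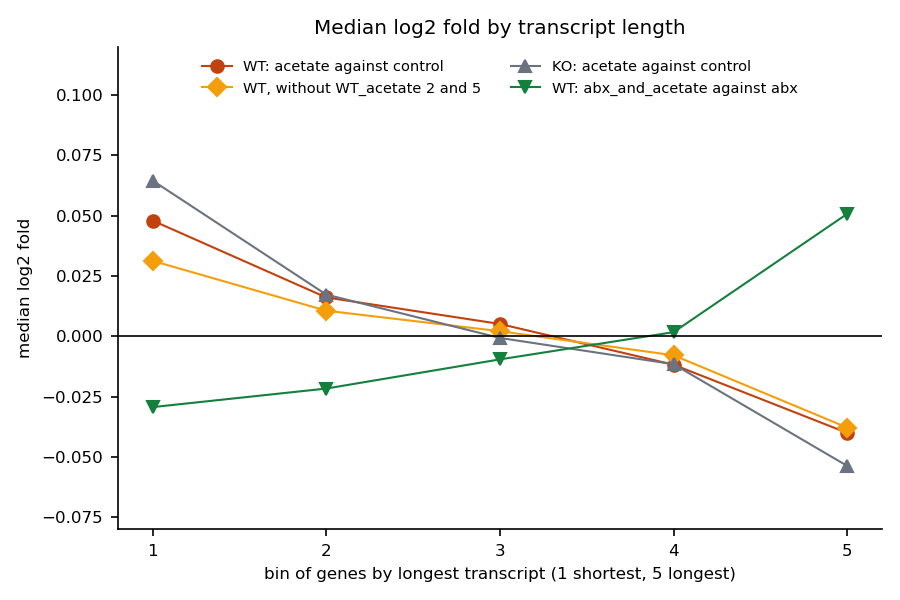
Median log2 fold of the genes in each of 5 bins by longest transcript (shortest at the left), for acetate against control in WT with and without WT_acetate 2 and 5, for acetate against control in KO, and for acetate added to antibiotics in WT. WT ran from 0.048 to -0.040 and KO from 0.065 to -0.054, while acetate added to antibiotics ran from -0.029 to 0.051.

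Immediate early genes stood lower in WT_acetate than in WT_control. Of the 32 listed, all were measured and 31 had a log2 fold below 0, with a median of -0.66, against 7482 of 14870 genes (50.3%) above 0 and a median of 0.0011 over all genes. None passed the adjusted threshold (smallest limma adjusted p = 0.193), 22 had an unadjusted p under 0.05 and a lower level (4.84% of all genes), and in 6 the groups did not overlap (0.908% of all genes). Leaving out WT_acetate 2 and 5, 31 were again below 0 (49.8% of all genes were above it), the median was -0.67 and 12 had an unadjusted p under 0.05 and a lower level (4.52% of all genes).

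Fosb, a partner of Jun in the AP-1 transcription factor, read 3.54, 4.69, 4.28, 3.89 and 4.17 log2 CPM in WT_acetate, against 4.82, 4.71, 4.63, 5.49, 5.81 and 5.76 in WT_control. Its log2 fold was -1.08 ± 0.30 (SE, adjusted p = 0.212). Fosl2, another AP-1 subunit, read 4.61, 5.52, 6.26, 4.79 and 5.17 in WT_acetate, against 5.72, 5.93, 5.89, 6.36, 6.60 and 6.51 in WT_control (log2 fold -0.86 ± 0.23 SE). WT_acetate 3 alone reached into the control range for Fosl2. Nr4a3, an orphan nuclear receptor induced by activity, read 3.74, 4.89, 4.39, 4.85 and 5.24 in WT_acetate, against 5.24, 5.67, 5.33, 5.54, 5.85 and 5.83 in WT_control (log2 fold -0.90 ± 0.27 SE, adjusted p = 0.247). Per1, a clock gene that activity and glucocorticoids both induce, read 6.50, 6.37, 6.58, 6.94 and 6.87 in WT_acetate, against 6.96, 7.45, 7.25, 7.36, 7.36 and 7.35 in WT_control (log2 fold -0.60 ± 0.17 SE, adjusted p = 0.215). In Nr4a3 and Per1 no acetate library was above the lowest control. Leaving out WT_acetate 2 and 5, the log2 folds of Fosb, Fosl2, Nr4a3 and Per1 were -1.28, -0.88, -1.19 and -0.56.

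Labelled sex moved with these levels in WT_control. The mean deviation of the 32 genes from their mean over the 11 libraries was -0.73 to -0.09 log2 CPM in WT_acetate, against -0.09 to 0.08 in the 3 control males and 0.56 to 0.71 in the 3 control females. WT_acetate 2 and WT_acetate 4, whose Y-linked genes were at the level of the females, stood at -0.13 and -0.43. Between the libraries labelled male alone, 25 of the 32 were lower in the 4 WT_acetate than in the 3 WT_control, with a median difference of -0.34, against a median of 0.0043 over all genes. The deposited titles of the control females carry consecutive numbers. Within WT_control, labelled sex therefore cannot be told apart from anything else these libraries share. Markers of cortical layers also moved with labelled sex among the controls. Upper-layer neuron markers had a mean deviation of -0.19 to 0.04 log2 CPM in WT_acetate, against -0.37 to -0.14 in control males and 0.24 to 0.34 in control females. Deep-layer markers had -0.34 to 0.45 in WT_acetate, against 0.10 to 0.37 in control males and -0.43 to -0.23 in control females. The part of layer composition in the immediate early genes was not tested. The WT_acetate group holds 1 female by label, and in 3 of its libraries (2, 4 and 5) the Y-linked genes go against the labelled sex, so sex and the acetate difference could be separated only as far as the labels are right; its part in the result was not tested beyond these values.

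**Figure D4:**
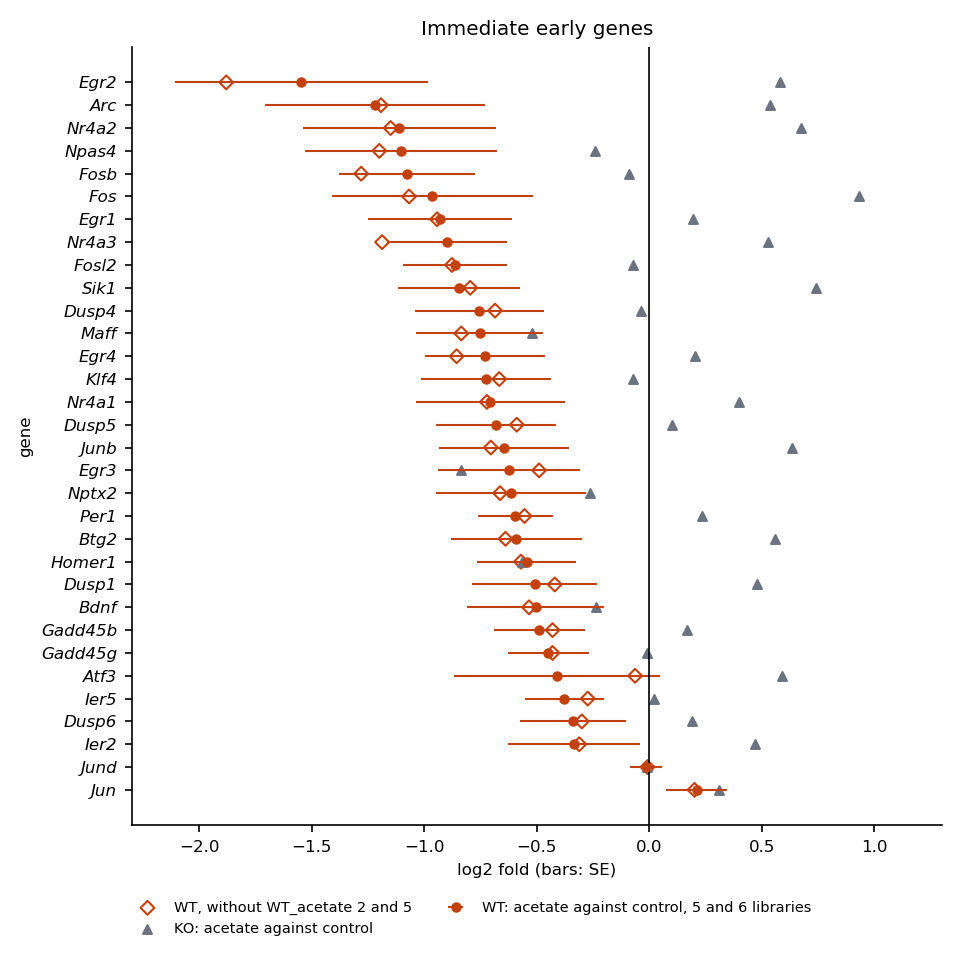
Log2 fold of 32 immediate early genes for acetate against control in WT (filled circles, bars are SE), in WT without WT_acetate 2 and 5 (diamonds) and in KO (triangles). In WT 31 of the 32 lay below 0; in KO 20 lay above 0.

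A pair of DNA elements drives many of these genes in rodents: the cyclic AMP response element (CRE), bound by CREB, and the CArG box of the serum response element, bound by SRF. The palindrome TGACGTCA of the full CRE, which reads the same on both strands, was searched in the 250 bases upstream of the RefSeq gene starts (GRCm38.p6), which were given for 25 of the 32 genes. It stood in 3 of the 25 (12%) and in 478 of 27025 genes of the whole table (1.77%). The CArG box, searched with its full set of allowed letters and with no overlap with the CRE, stood in 2 of the 25 (8%) and in 439 of all genes (1.62%). The 5 stretches are shown because they are the matches among the genes that stood lower together; capitals mark the motif, each runs 5′ to 3′ on the strand of its gene, and a match is not a measured binding site.

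Btg2: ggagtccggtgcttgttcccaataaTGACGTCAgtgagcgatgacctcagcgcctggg

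Dusp1: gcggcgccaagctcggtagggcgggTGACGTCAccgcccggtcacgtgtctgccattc

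Maff: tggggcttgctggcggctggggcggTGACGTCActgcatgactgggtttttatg

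Dusp5: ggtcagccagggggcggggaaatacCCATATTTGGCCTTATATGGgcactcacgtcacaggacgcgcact

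Egr2: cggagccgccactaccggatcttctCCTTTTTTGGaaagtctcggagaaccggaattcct

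The Btg2 stretch lies at chr1:134079289-134079346 on the reverse strand, that of Dusp1 at chr17:26508583-26508640 on the reverse strand and that of Maff at chr15:79347466-79347519 on the forward strand. Those of Dusp5 (chr19:53529038-53529107, with 2 adjoining boxes) and Egr2 (chr10:67537469-67537528, the first of 4 listed starts with a box) lie on the forward strand. Egr2, a zinc finger factor, had the lowest log2 fold of the list, -1.55 ± 0.56 (SE), with no overlap between the groups. Maff, a small Maf factor, had a log2 fold of -0.75, Dusp5 and Dusp1, phosphatases of MAP kinases, -0.68 and -0.51, and Btg2, an antiproliferative factor, -0.59.

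Glucocorticoid-responsive genes were mostly below 0. Of 21 measured, 20 had a log2 fold below 0, with a median of -0.29, and 18 without WT_acetate 2 and 5 (median -0.26). An unadjusted p under 0.05 and a lower level came for 5 (4.84% of all genes), and for 5 without those libraries (4.52% of all genes); none passed the adjusted threshold (smallest limma adjusted p = 0.215), and Per1 belongs to this list as well. Nfkbia, the inhibitor of NF-kappaB, read 3.67, 3.84, 3.84, 3.82 and 4.0 log2 CPM in WT_acetate, against 4.09, 4.39, 4.41, 4.37, 4.07 and 4.21 in WT_control, with no overlap and a log2 fold of -0.41 ± 0.15 (SE). Pdk4, the kinase that shuts pyruvate dehydrogenase, had a log2 fold of -0.38 ± 0.14. Cdkn1a, the cell cycle inhibitor p21, read 4.65, 5.21, 4.63, 4.89 and 4.56 in WT_acetate, against 5.63, 4.60, 4.53, 6.03, 6.20 and 6.33 in WT_control. WT_control 2 and 3 lay at the acetate level, and the other 4 controls above every acetate library.

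The same controls stood apart in genes of the endoplasmic reticulum stress response. In heat shock genes only the control females, at mean deviations of 0.16 to 0.20 log2 CPM, were above every WT_acetate library. WT_control 1, at 0.07, lay within the acetate range there. Of 21 measured genes of the endoplasmic reticulum stress response, 19 were below 0 (median log2 fold -0.11), and of 22 heat shock genes 19 were below 0 (median -0.08); without WT_acetate 2 and 5 these were 17 (median -0.11) and 16 (median -0.06). Between libraries labelled male, 10 of the 21 were above 0 and 11 below, and 14 of the 22 were above 0. WT_acetate 2 and WT_acetate 4 count as male there, though their Y-linked genes were at the female level. Hspa5 (BiP), the chaperone of the endoplasmic reticulum, read 7.62, 8.16, 7.93, 7.50 and 7.59 log2 CPM in WT_acetate, against 8.48, 7.66, 7.64, 8.33, 8.39 and 8.30 in WT_control. WT_control 2 and 3 were again within the acetate range, and the log2 fold of -0.36 ± 0.17 (SE) had an adjusted p of 0.501. Homer1, a postsynaptic scaffold whose short form is induced by activity, showed the same split: 7.43, 8.11, 7.62, 7.57 and 7.39 in WT_acetate, against 8.40, 7.45, 7.44, 8.57, 8.66 and 8.79 in WT_control.

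The clock genes were mixed, with 8 of 19 above 0 and a median log2 fold of -0.03 (9 and -0.03 without WT_acetate 2 and 5). Dbp, an output factor of the clock, read 6.66, 6.15, 6.45, 6.63 and 6.63 log2 CPM in WT_acetate, against 6.08, 6.50, 6.38, 5.69, 5.65 and 5.53 in WT_control. Its log2 fold was 0.55 ± 0.18 (SE, adjusted p = 0.279), and the 3 control females were below all other libraries. Arntl (Bmal1), the core activator of the clock, had a log2 fold of -0.30 ± 0.14, and Nfil3, a repressor that opposes Dbp, -0.46 ± 0.21. The sources used here do not give the hour at which tissue was taken, and its part was not tested.

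Enzymes that make or use acetyl-CoA differed by little. Of the 19 listed, all were measured, 13 had a log2 fold above 0 and the median was 0.08 (14 and 0.09 without WT_acetate 2 and 5); 4 were higher (4.57% of all genes) and 1 lower (4.84%) at an unadjusted p under 0.05, without those libraries 6 were higher (4.45% of all genes) and 1 lower (4.52%), and none passed the adjusted threshold (smallest limma adjusted p = 0.273). Acat2, the cytosolic thiolase that opens cholesterol synthesis, read 5.78, 5.46, 5.29, 5.45 and 5.59 log2 CPM in WT_acetate, against 5.18, 5.36, 5.40, 5.13, 5.06 and 5.28 in WT_control. Its log2 fold was 0.27 ± 0.08 (SE), and WT_acetate 3 alone was inside the control range. Acat1, the mitochondrial thiolase, and Pdhb, a subunit of pyruvate dehydrogenase, each had a log2 fold of 0.11, and Crat, which moves acetyl groups onto carnitine, one of -0.12.

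Acss1 and Acss2, named here because they activate acetate, did not differ in the same direction. Acss1, in mitochondria, read 4.43, 4.60, 4.88, 4.49 and 4.70 log2 CPM in WT_acetate, against 4.85, 4.82, 4.73, 4.72, 4.92 and 4.76 in WT_control (log2 fold -0.16 ± 0.09 SE, unadjusted p = 0.0653). Acss2, in cytosol and nucleus, read 5.77, 5.80, 6.18, 5.75 and 5.84 in WT_acetate, against 5.50, 5.94, 5.99, 5.89, 5.90 and 5.85 in WT_control (log2 fold 0.04 ± 0.10 SE, and 0.09 without WT_acetate 2 and 5). For both genes the groups overlapped, WT_acetate 3 held the highest acetate value, and Acly, which makes acetyl-CoA from citrate, had a log2 fold of -0.0025 ± 0.06, and of 0.04 without WT_acetate 2 and 5.

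Receptors and carriers of short-chain fatty acids gave no call. Of 16 listed, 11 were measured, 7 had a log2 fold above 0 (median 0.06) and none had an unadjusted p under 0.05; without WT_acetate 2 and 5, 9 were above 0 (median 0.11). Ffar2, Ffar3 and Hcar2, the receptors of short-chain fatty acids and butyrate, were not analysed here. Slc16a1, the monocarboxylate carrier MCT1, read 4.80, 4.66, 4.60, 5.03 and 4.69 log2 CPM in WT_acetate, against 4.47, 4.46, 4.59, 4.51, 4.44 and 4.62 in WT_control (log2 fold 0.24 ± 0.12 SE, unadjusted p = 0.0567). WT_acetate 3 lay inside the control range.

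Genes of histone acetylation were below 0 somewhat more often than above it, by small amounts. Of 13 acetyltransferases 8 were below 0 (median log2 fold -0.02), but 5 without WT_acetate 2 and 5 (median 0.02). Of 18 deacetylases and sirtuins 12 were below 0 (median -0.04; 12 and -0.05 without WT_acetate 2 and 5), and 14 between libraries labelled male (median difference -0.13). Of 15 acetyl-lysine readers 9 were below 0 (median -0.01; 9 and -0.03 without those libraries). Hdac5, a deacetylase that leaves the nucleus when neurons are active, was the only one of them with an unadjusted p under 0.05, 1 of 18 deacetylases and sirtuins where 4.84% of all genes were lower at that p. It read 7.40, 7.87, 7.67, 7.52 and 7.80 log2 CPM in WT_acetate, against 7.94, 7.93, 7.73, 7.84, 7.94 and 7.74 in WT_control, with a log2 fold of -0.19 ± 0.09 (SE, adjusted p = 0.504) and of -0.31 without WT_acetate 2 and 5.

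Of 25 genes of cholesterol synthesis 16 were above 0 (median log2 fold 0.07), and 4 of them had an unadjusted p under 0.05 (4.57% of all genes were higher at that p). Without WT_acetate 2 and 5 there were 17 above 0 with a median of 0.05, and 3 with such a p (4.45% of all genes). Beside Acat2 they included Nsdhl, a sterol dehydrogenase, with a log2 fold of 0.19 ± 0.07 (SE), and Fdps, which makes farnesyl pyrophosphate, with 0.19 (0.11 without WT_acetate 2 and 5). Between libraries labelled male 13 of the 25 were above 0 and the median difference was 0.0029. Of 20 genes of fatty acid synthesis 8 were above 0 (median -0.02), and 11 without WT_acetate 2 and 5 (median 0.0035).

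Nuclear genes of oxidative phosphorylation were mostly above 0, by a small amount. Of 74 measured, 71 had a log2 fold above 0, with a median of 0.10, and 12 had an unadjusted p under 0.05 and a higher level (4.57% of all genes). With those 2 libraries left out 66 were above 0 (median 0.09), and between libraries labelled male 72 were (median difference 0.12). Ndufs7, a subunit of complex I, read 6.33, 6.24, 6.46, 6.26 and 6.26 log2 CPM in WT_acetate, against 6.16, 6.12, 6.13, 6.25, 6.17 and 6.15 in WT_control (log2 fold 0.17 ± 0.05 SE, adjusted p = 0.279). Only WT_acetate 2 was below the highest control. Atp5g3, a subunit of the ATP synthase ring, was the 1 gene of the list whose groups did not overlap (0.74% of all genes lay above with no overlap), with a log2 fold of 0.14. Uqcrfs1 and Cyc1, of complex III, had log2 folds of 0.18 and 0.15. The longest transcripts of these genes had a median of 1.09 kb, against 3.45 kb over all matched genes, and bin 1 of all genes had a median log2 fold of 0.048; the part of length in this list was not tested.

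Of 79 cytosolic ribosomal protein genes, 72 were above 0 (median log2 fold 0.08). The count was 51 and the median 0.03 without WT_acetate 2 and 5. WT_acetate 5 had the highest mean deviation of the list, 0.25 log2 CPM, where the other WT_acetate libraries lay between -0.05 and 0.04 and WT_control between -0.15 and 0.12. Rpl35 read 5.90, 6.07, 6.0, 5.99 and 6.39 in WT_acetate, against 5.94, 5.71, 5.79, 6.0, 5.88 and 5.78 in WT_control. The median longest transcript of the list was 1.06 kb. Of the 13 genes of the mitochondrial genome 9 were above 0 (median 0.02), and 6 without WT_acetate 2 and 5 (median -8.2e-05).

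Oligodendrocyte markers were lower as a list without a single gene at an unadjusted p under 0.05. All 24 had a log2 fold below 0 (median -0.33; -0.27 without WT_acetate 2 and 5). The spread between libraries was wide: the mean deviation was -0.57 to 0.57 log2 CPM in WT_acetate and -0.15 to 0.52 in WT_control, and their summed level ran from 1926 to 4314 CPM in WT_acetate and from 2653 to 4089 in WT_control. Mobp, a myelin protein, read 7.67, 7.37, 8.91, 7.46 and 8.28 log2 CPM in WT_acetate, against 8.65, 8.54, 8.93, 8.33, 8.01 and 8.07 in WT_control. WT_acetate 3 was at the top of the controls, and 1, 2 and 4 were below all of them. In bulk tissue, fewer cells of a type and less RNA per cell cannot be told apart, and neither can a difference in where the punch was placed.

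**Figure D5:**
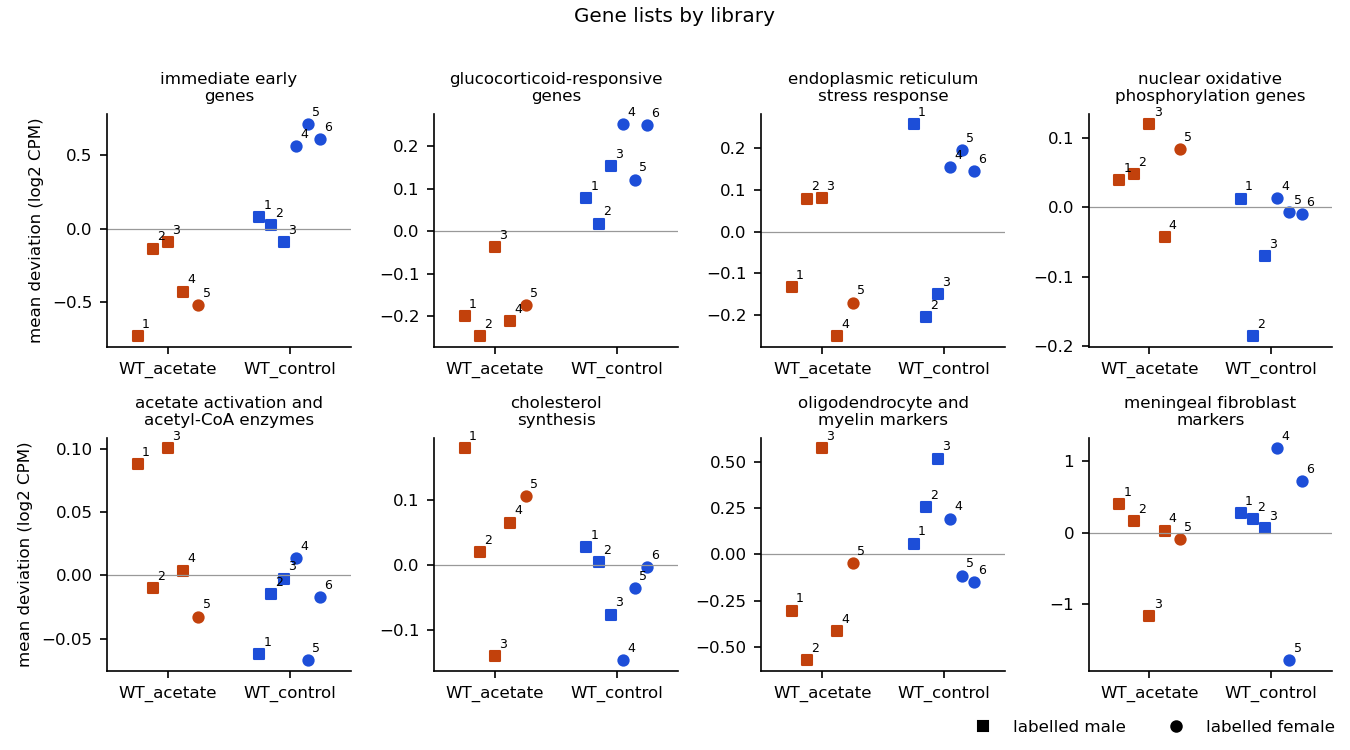
Mean deviation of 8 gene lists (log2 CPM, each gene against its mean over the 11 libraries) in WT_acetate and WT_control; squares are labelled male, circles labelled female, and numbers name the library. Immediate early genes ran from -0.73 to -0.09 in WT_acetate, and the 3 control females stood at 0.56 to 0.71; oligodendrocyte markers ran from -0.57 to 0.57 within WT_acetate.

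The acetate response of WT cortex was set beside that of KO cortex, which shares no library with it. Across the 14870 genes, the log2 folds had a Pearson r of 0.28 and a Spearman rho of 0.37, given as a description since genes are not independent. Of the 12 higher named genes 10 had a log2 fold above 0 in KO too, and of the 12 lower ones 11 were below 0, where over all genes the shares of the same sign were 66.0% and 67.0%. Exosc1 had a log2 fold of 0.15 ± 0.08 (SE) in KO and Klhl23 one of 0.20 ± 0.06. Igsf9b stood at -0.67 ± 0.18 in KO, close to its -0.71 in WT, and Mdn1 at -0.38.

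No gene (0%) differed between the responses of WT and KO at the adjusted threshold (limma, smallest adjusted p = 0.997), and 543 (3.65%) had an unadjusted p under 0.05. Immediate early genes made up 16 of these, all with a lower log2 fold in WT (2.04% of all genes). Leaving out WT_acetate 2 and 5, no gene differed at the adjusted threshold (0%, smallest adjusted p = 0.790), 672 (4.52%) had an unadjusted p under 0.05, and 14 immediate early genes were among those lower in WT (2.41% of all genes). In KO 20 of the 32 were above 0 (49.6% of all genes), with a median log2 fold of 0.19. Sik1, a salt-inducible kinase that cyclic AMP induces, read 3.26, 3.69, 3.82, 3.78 and 3.53 log2 CPM in WT_acetate, against 4.10, 4.37, 4.14, 4.81, 5.02 and 4.64 in WT_control, a log2 fold of -0.85 ± 0.27 (SE), while in KO the log2 fold was 0.74 ± 0.29. The difference, WT minus KO, was -1.59 (limma, unadjusted p = 0.000384). The control means of Sik1 were apart, 4.51 log2 CPM in WT and 3.36 in KO, and the acetate means were 3.62 and 4.09. Derl2 and Nr2f1 were likewise among the genes of smallest p: the log2 fold of Derl2 was -0.28 in WT and 0.06 in KO, and that of Nr2f1 0.39 in WT and -0.12 in KO. Dph1, an enzyme of diphthamide synthesis, had log2 folds of 0.21 in WT and -0.29 in KO. Zfp948, a zinc finger gene, had -0.36 in WT and 0.26 in KO. The control means of Dph1 were 3.82 log2 CPM in WT and 4.17 in KO, and its acetate means 4.05 and 3.89. Those of Zfp948 were 3.51 and 3.08 in the controls, and 3.15 and 3.34 with acetate. The part of the control levels in these differences was not tested.

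Acetate added to antibiotics in WT (WT_abx_and_acetate against WT_abx, 8 libraries) also shares no library with the WT comparison on water. Its baseline of 4 WT_abx libraries holds some that go against the label checks. WT_abx 4 read 7.48 log2 CPM for Shank3 and 4.56 for Acr, between the other WT and the KO libraries, and WT_abx 3, labelled female, read 5.86 for Ddx3y, at the level of males. The Pearson r across genes was 0.18 and the Spearman rho 0.26. Of the named genes 9 of 12 higher and 6 of 12 lower ones had the same sign, where over all genes the shares were 59.2% and 60.8%. Without WT_abx 4 these were 9 and 6 (55.8% and 55.7% of all genes), and without WT_abx 3 and 4 they were 9 and 9 (58.7% and 59%). Of the 32 immediate early genes 30 had a log2 fold below 0 on antibiotics (49.3% of all genes were above 0), with a median of -0.34. All 32 were below 0 without WT_abx 4 (median -0.45), and 31 without WT_abx 3 and 4 (median -0.52). Of the 74 nuclear genes of oxidative phosphorylation 32 were above 0 on antibiotics (median -0.01), and 26 without WT_abx 3 and 4 (median -0.03). Of the 79 cytosolic ribosomal protein genes 9 were above 0 (median -0.07), and 6 without those libraries (median -0.10). In the KO comparison, 73 of the 74 and 74 of the 79 were above 0. Exosc1 had a log2 fold of 0.05 ± 0.08 (SE) there, and Klhl23 one of 0.26 ± 0.06 with an unadjusted p under 0.05. No gene (0%) differed between the responses at the adjusted threshold (limma, smallest adjusted p = 0.957), and 715 (4.81%) had an unadjusted p under 0.05. That number was 553 without WT_abx 4, 443 without WT_abx 3 and 4, and 634 (4.26%) without WT_acetate 2 and 5, again with no gene past the adjusted threshold (0%). Nsdhl and Mvk, the mevalonate kinase, were among those of smallest p, with log2 folds of 0.19 and 0.10 on water (that of Mvk 0.04 without WT_acetate 2 and 5) and -0.20 and -0.32 with antibiotics. Vps13b, a lipid transfer protein, had -0.09 on water and 0.25 with antibiotics.

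Many named genes had like values in WT_abx against WT_control, a comparison that shares its 6 control libraries with this one. Tipin had a log2 fold of 0.48 with acetate and 0.56 with antibiotics, Ago3 -0.57 and -0.61, Dnajc1 -0.47 and -0.47, Phf21b -0.71 and -0.70, and Igsf9b -0.71 and -0.71. Exosc1 had 0.41 with acetate and 0.13 with antibiotics, and Klhl23 0.27 and 0.08. Without WT_abx 3 and 4, which go against the label checks, the log2 folds with antibiotics were 0.62 for Tipin, -0.54 for Ago3, -0.47 for Dnajc1, -0.54 for Phf21b, -0.67 for Igsf9b, 0.09 for Exosc1 and 0.09 for Klhl23. Since the controls are the same libraries, a level particular to them enters both values. In KO_control, on water but of the other genotype, the means of Tipin and Phf21b were 3.07 and 3.96 log2 CPM. These lay nearer to WT_acetate (3.15 and 3.82) than to WT_control (2.68 and 4.60). The KO_control mean was likewise nearer to WT_acetate for Derl2, Tet3, Kmt2a, Mcm2, Zfp316, Tbcc, Zfp362 and Furin. For Ago3, Dnajc1, Igsf9b, Exosc1, Klhl23, Hectd2, Fubp1, Mdn1, Rnf20, Bmyc, Nosip, Snn, Cln6 and Nr2f1 the KO_control mean lay nearer to WT_control.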

How the data were processed

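The authors deposited 1 matrix of log2 CPM for 14870 named genes in 35 libraries, and limma is named, without a version, in the submitters' processing notes. Per the labels' protocols, RNA was isolated with spin columns and made into directional libraries read as paired ends. The sources used here do not give the aligner, the counting tool and its use of strand, the genome build or any filter on genes. The deposited log2 values have the form of voom, which adds 0.5 to a gene's reads and scales by library size: solving for the reads gave whole numbers (within 0.01) for 100% of them, and so the depth of 18.7 to 28.0 M (mega) reads in the 11 libraries. Depth limits low genes most.

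Groups and sex came from the labels; numbers follow the order of the records and only name a library. Each gene was tested with limma 3.58.1 (R 4.3.3) on the deposited log2 values, without further filter or pseudocount: 35 libraries, 8 group means and labelled sex, a variance prior that follows the mean, 2-sided p-values and Benjamini-Hochberg adjustment over all genes, threshold 0.05. All log2 folds are from this fit. A repeat left out WT_acetate 2 and 5, and contrasts tested WT against KO and water against antibiotics. The fit was tested on simulated data. Shank3 is given without the planned permutation test, since it singled out WT_acetate 2 and 5. Count tests on the recovered reads were not run; voom weights on those reads were an alternative.

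Named genes were those past the threshold, filled up to 12 a direction with the smallest unadjusted p among genes with a mean of at least 0 log2 CPM (up to 6 without WT_acetate 2 and 5, up to 4 for each test of a difference), up to 4 members of smallest p in a list, and genes that check the labels. Acss1, Acss2, Acly and the genes with a promoter motif were named outside this rule, and a few genes that it names are not reported here. The comparison, the 34 gene lists and the rule were chosen with earlier results of these data known. Positions are from GENCODE vM21 (GRCm38).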

Additional observations from a re-analysis of the deposited data

Results flagged for a closer look

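In 8 of 120 sets, each the libraries of 1 group for 1 named gene or list, a single library stood apart by Dixon's criterion, which chance meets in about 1 of 20 sets. For Tipin, WT_acetate 4 was the highest at 3.32 log2 CPM, with the others at 3.08 to 3.13. For Snn, WT_control 4 was the lowest at 7.26, with the others at 7.43 to 7.51. For Ago3, WT_acetate 1 was the lowest at 5.03, with the others at 5.39 to 5.46. Mdn1 stood apart in both groups: WT_acetate 1 was the lowest at 6.04 (others 6.23 to 6.26), and WT_control 2 the highest at 6.94 (others 6.45 to 6.60). Among lists, given as mean deviations in log2 CPM, WT_acetate 3 was the lowest for acetyl-lysine readers at -0.0557 (others 0.003 to 0.01) and the highest for excitatory neuron markers at 0.25 (others -0.02 to 0.03). For meningeal fibroblast markers WT_control 5 was the lowest at -1.78 (others 0.07 to 1.18).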

How the results depend on the processing

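Of 21 alternatives, none turned the sign of any of the 24 named genes. The count of 1 called gene with all libraries became 7 without the sex term (Ago3, Bmyc, Derl2, Dnajc1, Exosc1, Hectd2 and Klhl23), 2 among genes with a mean of at least 0 log2 CPM (Exosc1 and Hectd2), and 0 when only the 11 libraries were fitted, without 4 libraries at odds with their sex label by Y-linked genes, between libraries labelled male, with voom weights and with median-of-ratios scaling; the cause was not tested. With 1 library left out it ran from 0 to 6, the most without WT_control 1. Without WT_acetate 2 and 5, the count of 1 became 0 with the groups alone, without those 4 and with males alone, and 0 to 1 with 1 more library left out. Genes at an unadjusted p under 0.05 numbered 939 to 1496 and 907 to 1558. The tests of a difference gave 0 calls throughout, with 455 to 749 and 260 to 822 genes at an unadjusted p under 0.05; the fits without WT_abx 4 and without WT_abx 3 and 4 were chosen after seeing the data. The median of the immediate early genes ran from -0.76 to -0.34. No paired analysis was run, as the sources used here do not link single acetate libraries to single control libraries.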

Other observations

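Of 19 GABA receptor genes measured, 11 had a log2 fold above 0 (median 0.06), and 14 without WT_acetate 2 and 5 (median 0.08). Gabra5, the alpha subunit of extrasynaptic receptors, read 6.23, 6.04, 5.93, 5.87 and 6.01 log2 CPM in WT_acetate, against 5.85, 5.60, 5.80, 5.49, 5.34 and 5.54 in WT_control, with no overlap and a log2 fold of 0.39 ± 0.13 (SE, limma adjusted p = 0.30). Of 27 genes of glutamate receptors 15 were above 0 (median 0.01) and none had an unadjusted p under 0.05, and 12 were above 0 without WT_acetate 2 and 5 (median -0.01). Of 29 postsynaptic scaffolds 11 were above 0 (median -0.02), and 11 without those libraries (median -0.03).

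Among interferon-stimulated genes 6 of 21 were above 0 (median log2 fold -0.11), and 4 without WT_acetate 2 and 5 (median -0.17). Irf9, part of the factor that type I interferon activates, read 2.37, 3.09, 2.89, 3.22 and 3.27 log2 CPM in WT_acetate, against 3.66, 3.58, 3.26, 3.55, 3.23 and 3.53 in WT_control, with a log2 fold of -0.48 ± 0.13 (SE, adjusted p = 0.208) and of -0.62 without WT_acetate 2 and 5. Among 18 endothelial markers 8 were above 0 (median -0.01), and 8 without those libraries (median -0.05). Slc2a1, the glucose transporter of the blood-brain barrier, read 6.73, 6.86, 6.78, 6.91 and 6.87 in WT_acetate, against 7.05, 6.96, 6.93, 7.27, 7.34 and 7.56 in WT_control, with no overlap and a log2 fold of -0.31 ± 0.15 (adjusted p = 0.530). Of 21 microglia markers 12 were above 0 (median 0.03), but 6 without WT_acetate 2 and 5 (median -0.09). Of 18 astrocyte markers 3 were above 0 (median -0.09), and 5 without those libraries (median -0.07). Tmem119, a microglia marker, had a log2 fold of -0.25 ± 0.10 and of -0.39 without WT_acetate 2 and 5. Upper-layer neuron markers had 8 of 12 above 0 (median 0.03), 9 without WT_acetate 2 and 5 (median 0.11) and 11 between libraries labelled male (median difference 0.225). The direction of deep-layer markers depended on the libraries: 12 of 15 were above 0 with all libraries (median 0.07), 4 without WT_acetate 2 and 5 (median -0.16) and 2 between libraries labelled male (median difference -0.18).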
